A study of Mus musculus with 2 samples.

Results

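Of the 46610 DNase I hypersensitive sites (DHS) called on chromosomes 1 to 19 in splenic B cells, 4253 (9.12%) lay over the start of a protein-coding gene with a CpG-rich, one-way promoter. A transcription start site (TSS) was taken from the gene record of GENCODE release M1, which is on the mm9 genome. CpG-rich promoters were those whose surrounding 1000 bp contained 55% or more G and C bases and at least 0.6 of the CpG dinucleotides that its C and G content would give by chance (observed/expected CpG). They were called one-way when no protein-coding gene started on the opposite strand within 1 kb. The rule used sequence and gene position, and the presence of a peak over the TSS was given for every member. Since a wide peak is more likely to contain a given base, the rule also bears on width and reach, most of all beside peaks over no TSS. The complete list held 47542 peaks.

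The cells came from the spleen of C57/Bl6 animals of the Trp53+/+ genotype, aged 8 weeks and given the mock treatment, and were enriched with B220 MicroBeads on a magnetic column. B220 is a surface protein of B cells, although some other immune cells also carry it. The series has 1 DNaseI library and 1 input library, and the input was not analysed here. With 1 library there are no biological replicates, so no difference could be set against the spread between animals, no p-value is given, and the 95% intervals below (Wilson for shares unless named otherwise, exact order-statistic for medians) cover counting error over peaks or genes only. How deeply the library was sequenced cannot be read from a list of peaks, and an uncovered TSS is one at which no peak was called.

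In mammals, most CpG dinucleotides are methylated and have been lost over evolution, whereas CpG islands stay unmethylated and keep them. The majority of housekeeping genes start in such islands, as do many genes that control development, and the latter can be held silent by Polycomb proteins while their islands remain unmethylated. DNase I cuts DNA where nucleosomes are absent or displaced, so active promoters appear as hypersensitive sites just before and over the first transcribed bases.

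The bases just upstream of the TSS are shown for 4 of the 5 promoters with the highest peak scores, the 2 with the lowest, and the 2 CpG-richest without a peak within 5 kb, since these are the ends of the range described below. Each line runs 5′ to 3′ on the strand of the gene over the 200 bases before the TSS, in mm9, with every CpG in capitals. Immt, Mcart1, Sp4 and Zc3h12a carried the high scores.
Immt (chr6:71781125-71781324, plus strand): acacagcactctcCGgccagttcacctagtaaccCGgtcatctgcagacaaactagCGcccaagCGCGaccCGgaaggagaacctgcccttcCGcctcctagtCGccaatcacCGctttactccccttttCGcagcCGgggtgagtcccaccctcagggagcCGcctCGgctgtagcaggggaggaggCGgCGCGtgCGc
Mcart1 (chr4:45421634-45421833, minus strand): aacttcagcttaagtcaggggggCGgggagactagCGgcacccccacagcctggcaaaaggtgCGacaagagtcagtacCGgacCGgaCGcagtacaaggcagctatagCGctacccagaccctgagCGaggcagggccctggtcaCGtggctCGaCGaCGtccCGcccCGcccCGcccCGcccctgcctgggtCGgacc
Sp4 (chr12:119539914-119540113, minus strand): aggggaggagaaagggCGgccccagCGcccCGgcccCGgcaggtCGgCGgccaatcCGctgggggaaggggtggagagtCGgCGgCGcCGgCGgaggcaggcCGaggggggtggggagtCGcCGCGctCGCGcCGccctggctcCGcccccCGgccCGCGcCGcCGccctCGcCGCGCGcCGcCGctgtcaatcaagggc
Zc3h12a (chr4:124805085-124805284, minus strand): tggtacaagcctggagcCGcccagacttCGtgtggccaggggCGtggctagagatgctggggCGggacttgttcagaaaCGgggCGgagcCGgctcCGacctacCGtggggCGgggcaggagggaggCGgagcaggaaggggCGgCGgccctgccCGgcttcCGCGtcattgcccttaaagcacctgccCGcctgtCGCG
Fgf15 and Rims3 carried the lowest scores.
Fgf15 (chr7:152082237-152082436, plus strand): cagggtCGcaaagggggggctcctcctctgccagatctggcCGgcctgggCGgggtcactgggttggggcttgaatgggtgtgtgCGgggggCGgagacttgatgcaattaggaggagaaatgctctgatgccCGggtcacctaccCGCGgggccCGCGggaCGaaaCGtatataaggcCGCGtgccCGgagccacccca
Rims3 (chr4:120527221-120527420, plus strand): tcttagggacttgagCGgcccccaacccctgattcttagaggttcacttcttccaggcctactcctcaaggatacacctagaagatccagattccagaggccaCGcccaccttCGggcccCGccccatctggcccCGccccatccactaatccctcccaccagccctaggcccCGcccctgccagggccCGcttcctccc
Rimklb and Arhgef7 had no peak near them.
Rimklb (chr6:122436341-122436540, minus strand): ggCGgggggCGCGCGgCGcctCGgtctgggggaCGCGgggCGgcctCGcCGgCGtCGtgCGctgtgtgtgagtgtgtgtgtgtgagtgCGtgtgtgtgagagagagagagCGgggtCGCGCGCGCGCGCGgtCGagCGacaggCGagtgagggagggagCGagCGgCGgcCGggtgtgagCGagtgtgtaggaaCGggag
Arhgef7 (chr8:11727905-11728104, plus strand): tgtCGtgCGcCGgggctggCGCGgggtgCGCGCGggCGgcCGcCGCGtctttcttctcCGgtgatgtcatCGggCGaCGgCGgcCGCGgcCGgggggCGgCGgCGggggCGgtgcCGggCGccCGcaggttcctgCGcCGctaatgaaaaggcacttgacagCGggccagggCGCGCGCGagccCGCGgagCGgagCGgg
The last pair was chosen for its CpG density, so its CpG counts are a description only. Immt and Mcart1 each had 17 CpGs and Zc3h12a had 19, Rimklb had 32 and Arhgef7 had 38. Sp4 had 31, Fgf15 had 15 and Rims3 had 7.

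A peak covered 4292 of the 6743 CpG-rich one-way TSSs, or 63.7% (62.5 to 64.8), against 41.3% of all 21418 protein-coding TSSs. The class was thus covered more often than the genome-wide background, which includes it. Coverage was 21.7% (21.0 to 22.5) of 12304 CpG-poor one-way TSSs and 82.6% (80.7 to 84.3) of 1697 CpG-rich divergent TSSs, at which a second gene starts nearby on the other strand. Among CpG-poor divergent TSSs it was 70.9% (67.4 to 74.2) of 674, more often than at CpG-rich promoters without a partner. These CpG-poor divergent TSSs had a median GC content of 53.6% and observed/expected CpG of 0.588, just under the limits of the rule. The CpG-poor one-way TSSs had 49.0% and 0.265, so the 2 CpG-poor groups were not alike in composition. A single member gene start was covered by 4214 peaks, and 39 peaks covered 2.

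Member peaks were among the stronger of the list. Their median score was 111.93 (110.45 to 114.9), with quartiles of 75 and 162.53 and a range from 5.94 to 619.44. The score is the authors' value per peak, whose scale is not stated, so it is used here only to rank peaks within the list. Peaks over CpG-poor one-way TSSs had a median of 81.9 (79.8 to 84.8), those over CpG-rich divergent TSSs 124.79 (119.95 to 130.66), and those over no protein-coding TSS 27.0 (26.6 to 27.2). The highest 10% of scores began at 128.47, and 1720 members (40.4%, 39.0 to 41.9) fell in it against the 10% of all autosomal peaks that this limit sets. Members made up 36.9% of the peaks above that limit. A member drawn at random scored above a random CpG-poor promoter peak in 63.5% of pairs, above a divergent one in 43.5%, and above a peak over no protein-coding TSS in 88.0%.

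The members were also wide, with a median of 1531 bp (1510 to 1551) and quartiles of 1181 and 1940 bp. Divergent CpG-rich peaks were of like width (1548 bp, 1509 to 1589), CpG-poor promoter peaks were narrower (1331 bp, 1313 to 1354), and peaks over no protein-coding TSS had a median of 641 bp. Score and width moved together among members (Spearman rho 0.46 over 4253 peaks of 1 library). In bands of equal width the order of the classes stayed the same. Between 334 and 1181 bp the median score was 78.2 for members, 47.6 for CpG-poor promoter peaks, 101.19 for divergent peaks and 22.8 for peaks over no protein-coding TSS. From 1940 bp upward it was 155.47, 137.08, 171.9 and 100.78, respectively.

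**Figure D1:**
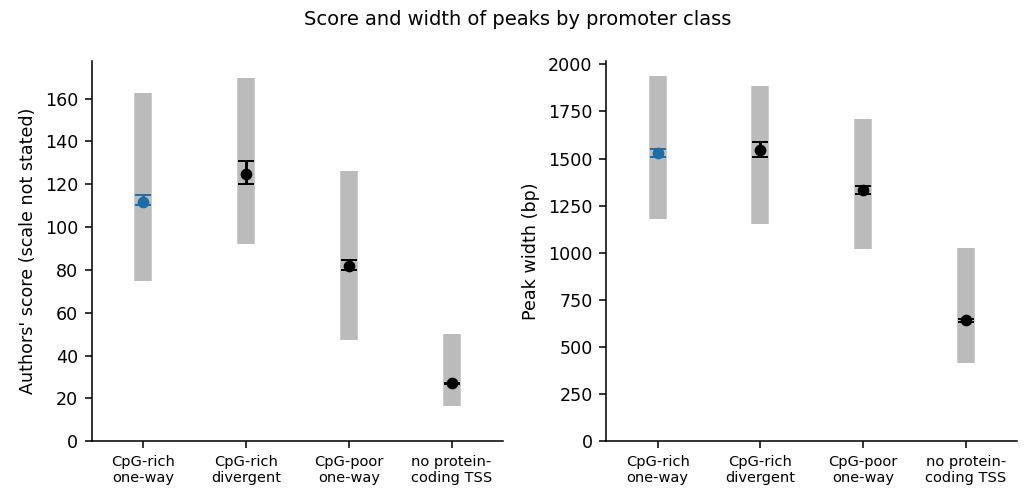
Authors' score (left, scale not stated) and peak width in bp (right) for peaks over CpG-rich one-way, CpG-rich divergent and CpG-poor one-way TSSs and over no protein-coding TSS. Grey bars span the quartiles, points are medians and whiskers their exact 95% intervals; members had a median score of 111.93 and a median width of 1531 bp.

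A neighbouring peak lay within 2 kb of 40.1% (38.6 to 41.6) of members, against 57.6% (57.1 to 58.1) of peaks over no protein-coding TSS, 38.0% (34.9 to 41.3) of divergent CpG-rich peaks and 34.3% (32.5 to 36.1) of CpG-poor promoter peaks.

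The highest score, 619.44, was at Npc1, which encodes a cholesterol transporter of late endosomes. It was followed by Immt (610.65), an organiser of the mitochondrial inner membrane, Mcart1 (549.41), a mitochondrial carrier, Sp4 (542.41), a zinc-finger factor that binds GC boxes, and Zc3h12a (538.75), an RNase that degrades inflammatory mRNAs. U2af2, a splicing factor that reads the polypyrimidine tract, scored 519.65 under a peak of 3447 bp. Ntan1 (500.04), an amidase of the N-end rule pathway, Plekhm1 (495.11), a lysosome adaptor, Sap130 (489.59), a subunit of the Sin3 corepressor, and E230001N04Rik (483.33) made up the rest of the first 10. These 10 peaks measured from 1194 bp at Sap130 to 3447 bp at U2af2, so none was among the 5 widest.

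The widest member peaks lay at other genes. Tnrc18 had the widest at 7732 bp with a score of 83.14, below the median of the members. Zfp36, which encodes an mRNA-destabilising protein, had 7653 bp, Dusp2, a phosphatase of MAP kinases, 6012 bp, Egr3, an immediate early transcription factor, 5737 bp, and Gse1 5599 bp. Their scores were 234.92, 243.57, 109.97 and 147.82. In all, 185 members (4.35%) reached 3 kb or more, against 3.79% of CpG-poor one-way peaks, 3.01% of CpG-rich divergent peaks and 0.615% of peaks over no protein-coding TSS. The lowest scores were at Fgf15 (5.94), Rims3 (6.16), Srxn1 (6.24), Sned1 (6.6) and Spsb4 (8.23), under peaks of 354 to 724 bp. Fgf15 encodes a gut hormone and Rims3 a protein of the presynaptic active zone.

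Member peaks were placed off-centre, towards the gene. Of the 4253, 2753 (64.7%, 63.3 to 66.2) reached further into the gene than upstream of the TSS. The median reach was 683 bp upstream (673 to 695) and 840 bp downstream (825 to 853), and the peak centre lay a median of 94 bp into the gene. The share was 62.1% (59.2 to 65) in the narrowest quartile of members and 65.1% (62.2 to 67.9) in the widest. The gene record gives the outermost annotated start, and starts further into a gene were not used here. With starts of all protein-coding transcripts the share was 61.0% (59.6 to 62.3). At CpG-poor one-way TSSs 69.1% (67.3 to 70.8) reached further downstream, and the upstream reach was shorter, at 536.5 bp (524 to 550). At divergent CpG-rich TSSs the share was 66.2% (63.0 to 69.3), which the interval of the members overlaps.

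**Figure D2:**
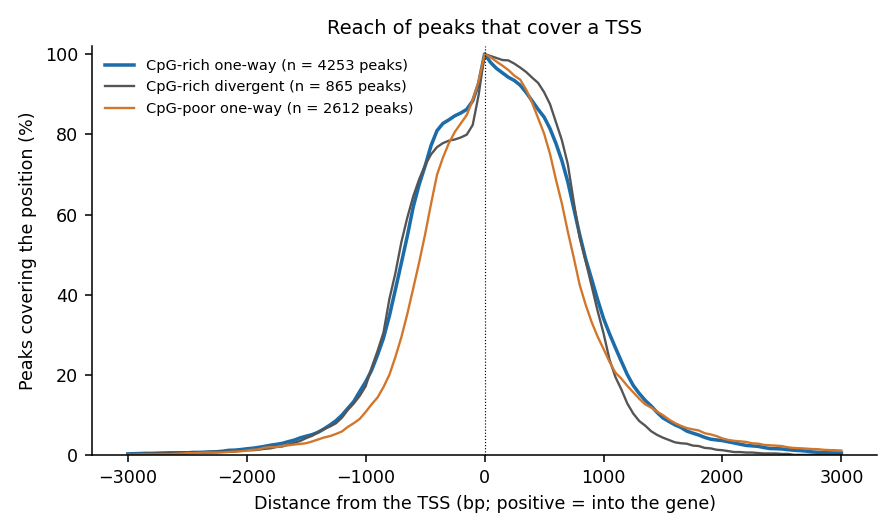
Share of peaks covering each position from 3 kb upstream to 3 kb downstream of the TSS (x axis in bp, positive into the gene) for 4253 CpG-rich one-way, 865 CpG-rich divergent and 2612 CpG-poor one-way peaks. All lines are at their top at the TSS, which the choice of peaks fixes; the members extend further upstream than the CpG-poor peaks.

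First exons were short, and most of these peaks ran into the first intron. The annotated first exon had a median of 227 bp in the 3913 members with more than 1 exon and a coding transcript at that TSS, and the peak passed its end in 3528 (90.2%, 89.2 to 91.1). The peak reached the annotated start codon in 2548 of 3951 (64.5%, 63.0 to 66.0).

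One-way here refers to protein-coding genes, and 348 members (8.18%) had a noncoding gene starting on the opposite strand within 1 kb. These reached 706.5 bp upstream (656 to 736) against 683 bp (672 to 693) in the others, and scored 108.92 (102.79 to 120.15) against 112.08 (110.51 to 115.28). Neither interval separated them. The covered share was 62.7% (58.7 to 66.6) of 561 TSSs with such a partner and 63.7% (62.5 to 64.9) of 6182 without.

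The peaks were wider than the CpG-rich stretch they covered. The run of 200-bp windows around the TSS that met the CpG rule had a median length of 800 bp (780 to 810). The peak was longer than the run in 3715 of 4253 members (87.4%, 86.3 to 88.3) and passed both of its ends in 2986 (70.2%, 68.8 to 71.6). Observed/expected CpG was 0.713 (0.709 to 0.719) inside the peaks, 0.257 (0.251 to 0.263) in the 500 bp upstream of them and 0.309 (0.3 to 0.317) in the 500 bp downstream, a difference that the CpG rule for the TSS in large part sets. Peak width and run length were only weakly related across members (Spearman rho 0.08, and 0.26 when peaks closer than 500 bp were merged).

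Base composition moved with whether the TSS was covered. Coverage was 78.1% (76.2 to 79.9) of 2014 TSSs with a GC content of 55 to 60%, 69.2% (67.2 to 71) at 60 to 65%, 55.6% (53.2 to 58.1) at 65 to 70%, 35.2% (31.7 to 38.9) at 70 to 75%, and 16.6% (12.1 to 22.3) of 205 TSSs from 75% upward. The share with a peak anywhere within 1 kb fell much less, from 86.3% (84.7 to 87.7) in the lowest GC band to 74.7% (71.3 to 77.8) at 70 to 75% and 78.0% (71.9 to 83.2) from 75% upward. The median score of the peaks that did cover the TSS was 110.5 (106.87 to 112.8) in the lowest band and 139.88 (81.6 to 168.86) in the highest, where only 34 TSSs were covered.

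TSSs between a pair of peaks became more common with GC content. A TSS was uncovered but had a peak within 1 kb on each side in 5.91% (4.96 to 7.02) of promoters at 55 to 60% GC, 8.38% at 60 to 65%, 16.2% at 65 to 70%, 29.5% (26.3 to 33.1) at 70 to 75% and 54.6% (47.8 to 61.3) from 75% upward. In the last band this state was more common than coverage.

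**Figure D3:**
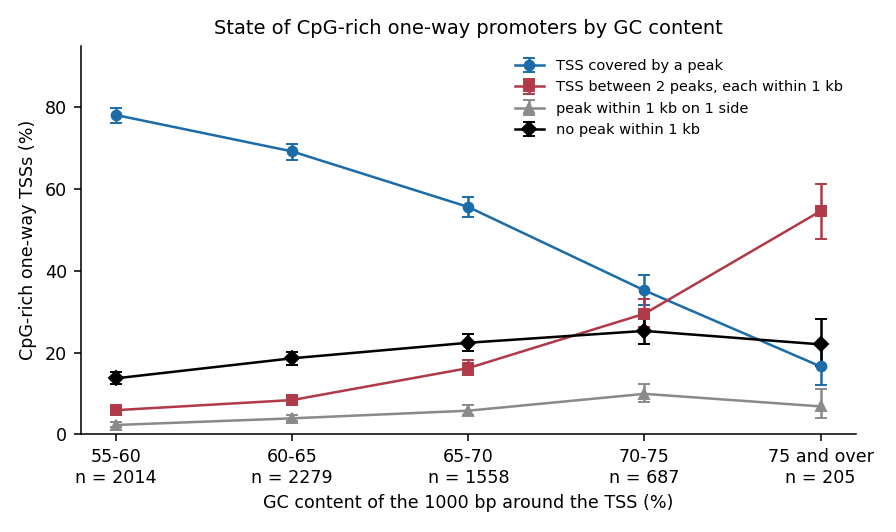
Share of CpG-rich one-way TSSs (y axis, %) in each state by GC content of the 1000 bp around the TSS (x axis, %, with the number of TSSs), with Wilson 95% intervals. Covered TSSs fell from 78.1% to 16.6% over the bands while TSSs between 2 peaks went from 5.91% to 54.6%, and TSSs with no peak within 1 kb stayed between 13.7% and 25.3%.

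In all, 2451 CpG-rich one-way TSSs were uncovered. Of these, 877 (35.8%, 33.9 to 37.7) lay between 2 peaks, 168 had a peak within 1 kb downstream only, 139 upstream only, 89 had the nearest peak at 1 to 5 kb, and 1178 (48.1%, 46.1 to 50) had none within 5 kb. Another annotated transcript start of the same gene was covered in 338.

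At the 877 TSSs between 2 peaks the gap was short, with a median of 297 bp (274 to 317), and 654 gaps (74.6%, 71.6 to 77.3) were under 500 bp. The upstream peak scored a median of 79.9 (74.7 to 83.2) and the downstream peak 51.9 (47.0 to 56.2), and they measured 735 and 800 bp. Members of 334 to 1181 bp had a median score of 78.2 (74.1 to 81.9). GC content inside the gap was 76.5% (75.8 to 77.1) against 63.3% (62.7 to 63.8) in the rest of the same 1000 bp, and it was higher inside in 779 of the 872 gaps for which both could be computed (89.3%, 87.1 to 91.2). The TSS with the 50 bp on each side of it had a GC content of 76.2% (75.2 to 77.2) at the TSSs in gaps, 69.3% at covered TSSs, and 72.3% at those with no peak within 5 kb. The 1000 bp around the TSS had 67.3%, 61.7% and 64.2% in the same order, so GC content was higher close to the TSS in all 3 states, and every gap holds a TSS. The part of GC content in the gaps was not tested.

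Bach2, a transcription factor of mature B cells, is shown as an example, chosen after its values were seen. Its TSS lay in a gap of 457 bp between a peak of 963 bp that scored 73.08 and one of 1635 bp that scored 259.48. The part of the gap before the TSS, with CpGs in capitals, held 34 CpGs in 249 bases and had a GC content of 71.1%. Its 1000 bp had 75%, with 75.27% inside the whole gap and 74.63% in the rest. Bach2 is thus an example of the arrangement of peaks, with a gap only slightly GC-richer than its surroundings.
Bach2 (chr4:32325530-32325778, plus strand): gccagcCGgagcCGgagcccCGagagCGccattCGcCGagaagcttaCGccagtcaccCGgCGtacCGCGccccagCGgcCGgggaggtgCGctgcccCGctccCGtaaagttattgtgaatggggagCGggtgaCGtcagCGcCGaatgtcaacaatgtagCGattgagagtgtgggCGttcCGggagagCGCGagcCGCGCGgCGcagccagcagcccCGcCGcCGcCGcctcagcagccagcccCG
A member of the same class can also be covered only by a few bases. The peak at Mdm2, which encodes the ubiquitin ligase of p53, began 16 bp upstream of the TSS and ran 1190 bp into the gene with a score of 267.2. Among covered TSSs, 654 lay within 100 bp of the edge of the peak, with a median GC content of 63.0% (62.5 to 63.7). The 691 uncovered TSSs within 100 bp of a peak had 65.3% (64.6 to 65.9), and the 3638 TSSs deeper inside a peak had 61.5% (61.3 to 61.7).

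CpG density, as opposed to GC content, ran the other way up to 1.0 within the 3 bands of GC under 70%. At 60 to 65% GC, coverage was 53.4% (49.4 to 57.4) of TSSs with an observed/expected CpG of 0.6 to 0.7, 72.2% (68.9 to 75.3) at 0.7 to 0.8, 77.2% (73.7 to 80.5) at 0.8 to 0.9 and 78.0% (72.8 to 82.4) at 0.9 to 1.0. It was 63.2% (50.2 to 74.5) of the 57 TSSs above that. At 55 to 60% GC it went from 68.5% (65 to 71.9) to 87.6% (81.6 to 91.8) over the same 4 bands, and at 65 to 70% from 47.8% (40.1 to 55.5) to 63.1% (57.8 to 68.1). Above 1.0 it was 75.9% (57.9 to 87.8) of 29 TSSs and 53.6% (43.0 to 63.8) of 84 TSSs in these bands. From 70% GC upward coverage was 0 of 12 TSSs at 0.6 to 0.7 (0 to 24.2%) and did not rise further above that, with 37.5% (28.5 to 47.5) at 0.7 to 0.8, 28.4% (23.5 to 33.8) at 0.8 to 0.9 and 33.3% (28.6 to 38.5) at 0.9 to 1.0. Median scores over all members were 94.2 (89.6 to 99.5) at 0.6 to 0.7 and 129.1 (121.13 to 135.65) at 0.9 to 1.0. Score was nearly unrelated to GC content (Spearman rho 0.04) and weakly related to observed/expected CpG (rho 0.18).

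The values on either side of the limits of the rule were as follows. TSSs at 53 to 55% GC, just outside, were covered in 81.3% with a median score of 109.48, and those at 55 to 57%, just inside, in 80.3% with 110.03. At an observed/expected CpG of 0.55 to 0.6 the values were 51.5% and 78.2, and at 0.6 to 0.65 they were 57.1% and 88.7. With an opposite TSS at 500 to 1000 bp they were 77.5% and 125.55, and at 1000 to 1500 bp 66.7% and 152.0, the latter over 69 TSSs. By chromosome, coverage ran from 57.4% to 70.5% and the median score from 100.93 to 127.42.

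Words bound by well-known promoter factors were counted in the 300 bases from 250 before to 50 after each TSS, on both strands. One example of each of 6 words is shown first, from a high-scoring member that held it upstream of the TSS, on the strand of the gene and with the word in capitals.
ETS, 9430023L20Rik (chr15:101114662-101114698, plus strand): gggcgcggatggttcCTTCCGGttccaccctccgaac
NRF1, Tax1bp1 (chr6:52663672-52663709, plus strand): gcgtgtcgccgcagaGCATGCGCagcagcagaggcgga
Ronin, Med11 (chr11:70265357-70265393, plus strand): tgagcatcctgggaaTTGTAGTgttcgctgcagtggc
YY1, Hook2 (chr8:87514397-87514434, plus strand): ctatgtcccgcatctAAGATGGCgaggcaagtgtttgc
CRE, Plk2 (chr13:111185175-111185212, plus strand): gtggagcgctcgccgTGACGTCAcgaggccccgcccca
NF-Y, Cnot1 (chr8:98331424-98331458, minus strand): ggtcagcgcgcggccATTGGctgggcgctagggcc
The matches lay from 32 bases before the TSS at Tax1bp1 to 78 at Hook2. Each word is a description of sequence, not a measured site of binding, and its share depends on base composition. For this reason the same word read backwards without complementing it, which has the same bases, is given for each. Reading backwards changes the number of CpGs in several words, among them those of ETS, NRF1, CRE and the E-box, so in CpG-rich DNA it is a comparison of base content only.

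The ETS word CCGGAAG, the core read by GABPA and related factors, differed most between covered and uncovered promoters in absolute terms. It was in 861 of 4292 covered promoters (20.1%, 18.9 to 21.3), in 184 of 2451 uncovered ones (7.51%, 6.53 to 8.62) and in 10.9% of all 21418 protein-coding promoters. The reversed word was in 6.01% of covered and 4.53% of uncovered promoters. The difference was present in each band of GC, with 26.1% against 8.84% at 55 to 60%, 19.2% against 7.97% at 60 to 65%, 13.3% against 7.53% at 65 to 70% and 12.3% against 6.01% from 70% upward. Promoters between 2 peaks held it in 13.5% (11.4 to 15.9) and those with no peak within 5 kb in 3.48% (2.58 to 4.69). Matches at members were densest in the 100 bp before the TSS, at 126.26 per 1000 promoters, against 23.0 per 100 bp from there to 500 bp upstream.

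Other words showed smaller absolute differences in the same direction over all bands of GC together. The NRF1 word GCGCATGC was in 6.99% (6.26 to 7.79) of covered and 4.08% (3.37 to 4.94) of uncovered promoters, and in 3.35% of all, with the reversed word in 0.373% and 0.163%. The Ronin word ACTACAA was in 4.03% (3.48 to 4.66) and 1.43% (1.03 to 1.98), and in 3.73% of all, with the reversed word in 0.839% and 0.898%. The YY1 word AAGATGGC was in 4.54% (3.96 to 5.21) and 2.49% (1.94 to 3.18), and in 3.31% of all, with the reversed word in 0.303% and 0.163%. Its matches at members were densest in the first 100 bp of the gene, at 45.1 per 1000 promoters, against 8.46 in the 100 bp before the TSS. The cAMP response element (CRE) TGACGTCA was in 4.52% (3.94 to 5.18) and 2.28% (1.76 to 2.96), and in 2.31% of all, with the reversed word in 0.606% and 0.53%. The Zbtb33 (Kaiso) word TCTCGCGA was in 3.05% (2.58 to 3.61) and 1.51% (1.1 to 2.07), and in 1.32% of all, with the reversed word in 1.75% and 1.63%. The E-box CACGTG, read by Myc and Usf factors, was in 12.4% (11.5 to 13.4) and 9.75% (8.64 to 11.0), and in 7.78% of all, with the reversed word in 6.57% and 5.96%. Within single bands of GC some of these differences were small or turned. From 70% GC upward the YY1 word was in 2.54% of covered and 2.92% of uncovered promoters and the Ronin word in 0.362% and 0.325%. At 55 to 60% the Zbtb33 word was in 2.92% (2.2 to 3.88) and 2.49% (1.4 to 4.41), and at 60 to 65% the E-box was in 12.6% (11 to 14.3) and 11.1% (8.98 to 13.6).

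The NF-Y word CCAAT was in 37.9% (36.5 to 39.4) of covered and 31.3% (29.4 to 33.1) of uncovered promoters, and in 37.6% of all, but at 60 to 65% GC the shares were 37.4% and 37.3%. The reversed NF-Y word also differed, with 21.2% (20 to 22.4) of covered and 15.8% (14.4 to 17.3) of uncovered promoters. The Sp1 word GGGCGG was common in both, with 75.7% (74.3 to 76.9) of covered and 80.6% (79.0 to 82.1) of uncovered promoters against 43.7% of all. At 65 to 70% GC it was in 86.3% of each. The reversed Sp1 word was in 74.0% and 80.1%. The TATA word TATAAA was in 5.34% (4.7 to 6.05) and 4.61% (3.85 to 5.51) of these promoters, less often than in all promoters (13.5%, 13.1 to 14.0), and its reversed word in 4.03% and 3.35%, against 12.6% (12.2 to 13.1) of all. The PU.1 word GAGGAAG, an ETS-family word of lymphoid and myeloid cells, was in 11.7% (10.8 to 12.7) and 13.1% (11.9 to 14.5), and in 13.5% of all, with the reversed word in 8.6% and 11.5%.

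Among members, a few words went with the score. Peaks with the Zbtb33 word at the promoter had a median score of 141.27 (129.18 to 152.97) against 111.3 (109.56 to 113.79) without it, and the word was in 0.752% (0.381 to 1.48) of the lowest score quartile and 4.52% (3.42 to 5.94) of the highest. Peaks with the CRE scored 130.43 (122.09 to 142.94) against 111.29 (109.56 to 113.68). Both words hold CpGs, and the score was also weakly related to observed/expected CpG (Spearman rho 0.18). The part of CpG density in these differences was not tested. The ETS word, with the largest absolute difference between covered and uncovered promoters, did not rise steadily with the score. It went with 114.98 (111.0 to 117.8) against 111.34 (108.98 to 114.51), and was in 15.8% (13.7 to 18.1) of the lowest quartile, 22.6% (20.2 to 25.2) and 23.0% (20.5 to 25.6) of the middle ones and 19.1% (16.8 to 21.6) of the highest.

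**Figure D4:**
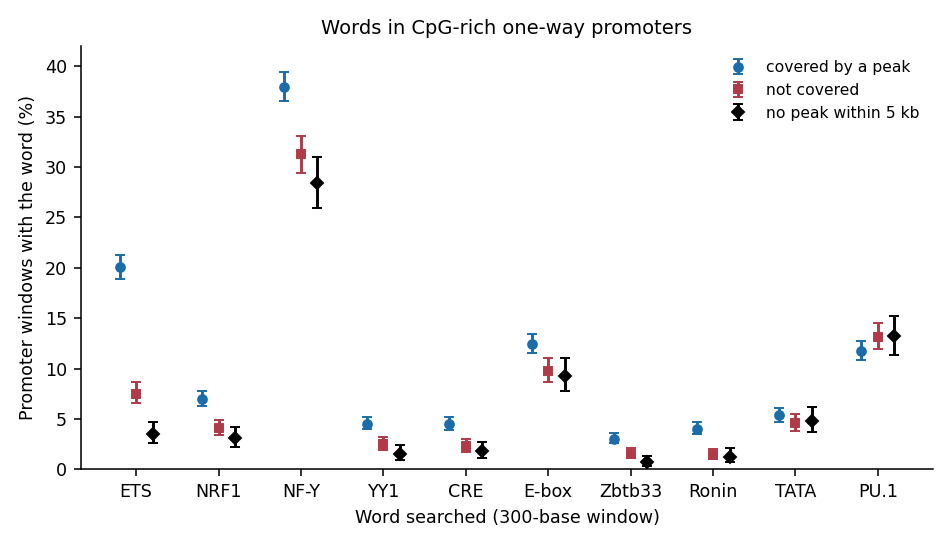
Share of CpG-rich one-way promoters (y axis, %, Wilson 95% intervals) whose 300-base window held each word, for TSSs covered by a peak, not covered, and with no peak within 5 kb (the last a subset of the second). The ETS word had the largest absolute difference of the words shown, with 20.1%, 7.51% and 3.48%; the Sp1 word is left out because its shares of 75.7% and 80.6% are beyond the axis.

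The genes were next grouped by function, with intervals for these small lists by the exact binomial method. Of general transcription proteins, RNA polymerase II subunits and general transcription factors were covered in 10 of 14 (71.4%, 41.9 to 91.6), among them Polr2a, the catalytic subunit, with a score of 146.04, and Taf12, a subunit of TFIID, with 167.65. Gtf2f1 scored 152.44 and Gtf2b 138.91. Mediator subunits were covered in 11 of 13 (84.6%, 54.6 to 98.1), led by Med11 (348.87) and Med26 (200.38). Splicing factors were covered in 19 of 22 (86.4%, 65.1 to 97.1) with a median score of 159.65. U2af2 (519.65), Sf1 (429.08), which recognises the branch point, and the SR proteins Srsf6 (368.84) and Srsf5 (286.62) were the highest. Beside the 63.7% of all CpG-rich one-way TSSs, the interval of the splicing factors lay above and those of the other lists of this paragraph included it. Among TSSs with under 65% GC, splicing factors were covered in 17 of 18 (94.4%, 72.7 to 99.9), which includes the 73.4% of all such TSSs.

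Subunits of the SWI/SNF remodelling complex, which moves nucleosomes, were covered in 12 of 18 (66.7%, 41.0 to 86.7). The ATPases Smarca2 and Smarca4 scored 268.89 and 201.61, and Smarcb1 scored 248.9. Translation initiation factors were covered in 23 of 29 (79.3%, 60.3 to 92.0), with Eif4a2, an RNA helicase, at 364.22. Cytoplasmic ribosomal proteins were covered in 35 of 46 (76.1%, 61.2 to 87.4), with Rpl30 at 252.68 and Rps19 at 251.91. Mitochondrial ribosomal proteins were covered in 18 of 20 (90.0%, 68.3 to 98.8) with a median score of 89.1 (71.4 to 119.53), beside 140.77 (127.78 to 160.15) for the cytoplasmic ones. A list of proteasome genes by symbol was covered in 17 of 18 (94.4%, 72.7 to 99.9), led among true subunits by Psma1 (222.97). Psmc3ip (266.31), a recombination protein, entered that list through its symbol only. Beside the 63.7% of the class, the intervals of mitochondrial ribosomal proteins and of proteasome genes lay above, and those of the other 3 lists included it. Under 65% GC neither lay above, with intervals of 66.9 to 98.7% and 72.7 to 99.9% that include the 73.4% of all 4293 such TSSs.

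The uncovered promoters of these machinery lists lay beside peaks, except for 3 of the SWI/SNF list with none within 1 kb. Polr2e was 62 bp from a peak, Taf5 28 bp, Taf3 9 bp and Taf4a 75 bp. Med13 and Med13l, paralogous subunits of the Mediator kinase module, were 71 and 93 bp away. U2af1, Srsf9 and Ptbp1 were 6, 75 and 138 bp away, Mrps23 and Mrpl17 6 and 78 bp, and Psmb2 27 bp. All of these but Taf4a lay between 2 peaks. Of 11 uncovered ribosomal protein genes 10 lay between 2 peaks, as did 5 of 6 uncovered translation initiation factors. A peak lay within 1 kb in all 46 ribosomal protein genes, all 29 translation initiation factors, all 22 splicing factors and all 14 genes of the polymerase list (76.8 to 100%), and in 15 of 18 of the SWI/SNF list (83.3%, 58.6 to 96.4), against 81.2% (80.3 to 82.1) of the whole class. The last 2 intervals include the share of the class.

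Developmental transcription factors, which pattern the embryo, were at the other end. Of 55 CpG-rich one-way promoters 6 were covered (10.9%, 4.11 to 22.2), and 38 had no peak within 5 kb. Among those with under 65% GC, 5 of 35 were covered (14.3%, 4.81 to 30.3) against 73.4% (72.0 to 74.7) of all 4293 such TSSs. The covered ones included Neurog2 (120.47), Foxc2 (72.93), Dlx2 (45.97) and Pax3 (22.81). The 6 had a median score of 34.4 (10.5 to 120.47), an interval that includes the median of all members, and a median width of 2301.5 bp. Hox genes, which set position along the body axis, were covered in 1 of 16 (6.25%, 0.158 to 30.2), at Hoxa7 with a score of 136.3, although 7 of 16 had a peak within 1 kb.

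Neuronal genes were covered in 5 of 18 (27.8%, 9.69 to 53.5), and their peaks were both low and narrow, with medians of 20.3 and 423 bp. Tubb3 scored 22.73, Grin1 20.28 and Nefh 14.49. Potassium channel genes named Kcn were covered in 9 of 39 (23.1%, 11.1 to 39.3), and the highest was Kcna3 (212.92), a channel of lymphocytes. Among larger families, solute carriers were covered in 67 of 118 (56.8%, 47.3 to 65.9), an interval that includes the 63.7% of the class, led by the mitochondrial iron importer Slc25a37 (432.25), and zinc finger proteins named Zfp in 86 of 113 (76.1%, 67.2 to 83.6), above it, led by Zfp653 (380.95).

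**Figure D5:**
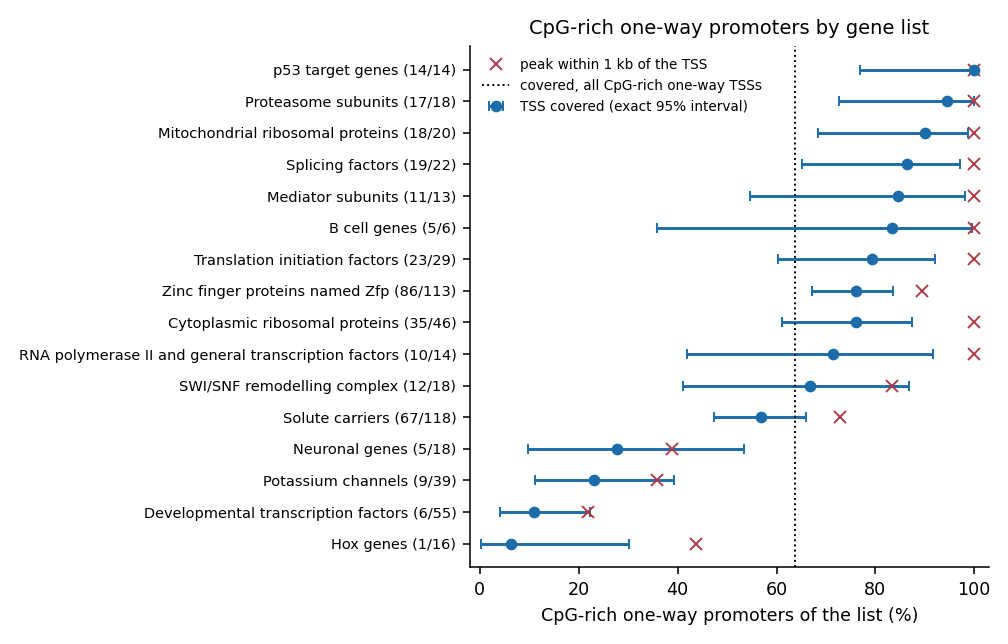
CpG-rich one-way promoters of each gene list with 5 or more of them (x axis, %): TSS covered by a peak (points with exact 95% intervals; counts in the labels) and any peak within 1 kb (crosses). The dotted line is the 63.7% of all CpG-rich one-way TSSs; developmental factors, Hox genes, potassium channels, neuronal genes and solute carriers lie to its left, the last with an interval that includes it.

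The 10 CpG-richest promoters without a peak within 5 kb were those of Rimklb, Arhgef7, Lin28b, Bmp2, Bves, Jag2, Zcchc14, Tcf15, Id4 and Fign, with observed/expected CpG from 1.06 to 1.09. Lin28b encodes an RNA-binding protein of early embryos, Bmp2 a secreted growth factor, Jag2 a Notch ligand, Tcf15 a factor of somites, and Id4 an inhibitor of basic helix-loop-helix factors. The nearest peak was from 10024 bp away at Rimklb to 924245 bp at Fign. At Bmp2 it was 531008 bp away and at Id4 251079 bp.

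Among lineage genes, the labelled cell type was checked at promoters of any kind. Peaks covered 27 of 29 promoters of B cell genes, including Cd79a, Cd79b, Pax5, Ebf1 and Ms4a1, against 41.3% of all protein-coding TSSs, and left out Bach2 and 1 of 2 records of Ciita. They covered 2 of 16 T cell markers (Gata3 and Lck, with Cd3d, Cd3e, Cd3g, Cd4 and Cd8a uncovered), 2 of 15 myeloid markers (Cd14 and Cebpa) and 2 of 10 erythroid markers, among them Tal1. Only a few of these are CpG-rich one-way promoters. Of 6 in the B cell list, 5 were covered (83.3%, exact interval 35.9 to 99.6%), which includes the 63.7% of the class. The covered ones included Lyn (281.11), a Src-family kinase of the B cell receptor, and Plcg2 (171.94), the phospholipase downstream of it. The transcription factors Irf8 (163.01) and Ikzf3 (135.91) were also covered. The T cell factors Tcf7 and Bcl11b were both uncovered, at 290 bp and 174852 bp from a peak. Cebpa and Tal1, factors of myeloid and erythroid cells, were covered with the low scores of 57.27 and 40.49, and Ank1 was uncovered at 52888 bp. Whether these peaks come from B cells or from other cells in the preparation was not tested.

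The study concerned p53, and these cells carried intact p53 without irradiation. All 14 CpG-rich one-way promoters of the p53 target list were covered (exact interval 76.8 to 100%), beside 63.7% of the class. Their median score was 202.38 (85.8 to 267.2), an interval that includes the 111.93 of all members. Under 65% GC 11 of 11 were covered (71.5 to 100%), which includes the 73.4% of all such TSSs. Among promoters of any kind 24 of 28 in the list were covered (85.7%, 67.3 to 96.0), beside 41.3% of all protein-coding TSSs. Plk2, a kinase, scored 374.26, Bbc3, which encodes the apoptosis inducer Puma, 372.59, Mdm2 267.2 and Rrm2b, a ribonucleotide reductase subunit, 248.74. Cdkn1a, which encodes the cell cycle inhibitor p21, was not a member by the start of its gene record. The 1000 bp around that start had a GC content of 47.3% and an observed/expected CpG of 0.126. It lay 2262 bp from the nearest peak. These values describe that start only, and other starts of the gene were not looked at singly.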

How the data were processed

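The deposited processed data of the DNaseI library are 1 BED file with the position of each peak, a MACS-style name and the authors' score, on a scale that is not given in the sources used here. The submitters' processing notes name BWA 0.6.2, SAMtools and mm9. Caller version, settings, read filters and any use of the input are not given for the DNaseI library. The paper describes MACS settings and read filters for its ChIP-seq data, without saying whether they were used for this library. Such settings decide where peaks end and whether close peaks are joined. The file holds no counts, so depth is unknown.

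TSSs of protein-coding genes on chromosomes 1 to 19 came from gene records of GENCODE release M1, and sequence from NCBI build 37 (mm9); positions count from 1. No sequence was printed from chromosome 18. Lengths of chromosomes fitted all peaks but 1. A peak covered a TSS when it contained that base. Computations used Python 3.11.15 with numpy 2.4.6, pandas 2.3.3, scipy 1.17.1 and matplotlib 3.10.9, and were tested on simulated data. The members, the 19 gene lists and the 11 words were chosen with earlier results of these data known. Named genes were the 10 highest, 5 lowest and 5 widest members, the 10 uncovered promoters with the highest observed/expected CpG and no peak within 5 kb, up to 4 covered genes per list by score, uncovered ones where a list had fewer than 6, Cdkn1a and Mdm2; any others were named after their values were seen, and a few genes of the rule are not reported here. Genes were matched by symbol. Alternatives changed the score threshold, peak merging, CpG rule, TSS set, overlap, divergent rule, window length, GC range and the distance to a peak.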

Additional observations from a re-analysis of the deposited data

Results flagged for a closer look

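Chromosome X lies outside the rule and was not used in any comparison. Its 151 CpG-rich one-way TSSs were covered in 79 cases (52.3%, 44.4 to 60.1, Wilson), by 77 peaks. The median score of these 77 peaks was 62.0 (49.0 to 76.9) and their median width 1238 bp, against 111.93 and 1531 bp on chromosomes 1 to 19, where the lowest median score of a chromosome was 100.93. The GC content of the promoters was alike, at 61.6% on chromosome X and 62.9% on the others. The difference was not tested.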

How the results depend on the processing

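There is 1 library, so no replicate could be left out. No paired analysis was possible because no group has a second sample and no result comes from a test. Over 6 summary values and their 36 alternatives, 12 stayed within the interval of the value, 5 were counts of peaks from 3604 to 5261 (within 1.5 times 4253), and 19 moved further; the cause was not tested. Keeping only peaks at or above the median score gave 59.8% of TSSs covered, a median score of 116.88 and a width of 1564 bp. Merging peaks closer than 500 bp gave 73.4% covered, a width of 1777 bp and a rho of 0.26 between width and CpG-rich run. An observed/expected CpG of at least 0.75 left 2752 peaks, with a median score of 118.99, a width of 1578 bp and 62.4% reaching further downstream. Starts of all protein-coding transcripts gave 67% covered, a score of 109.17, a width of 1497 bp and 61.0% further downstream. Requiring 100 bp of peak on each side gave 54.0% covered, a score of 115.68, a width of 1623 bp, 62.6% further downstream and a rho of 0.13. Of 81 alternatives for shares of words and of gene lists, 48 moved, among them all 22 shares of words in a window of 100 bases. Under 65% GC, a comparison added after seeing the data, the order of covered and uncovered promoters turned for the TATA word (6.16% against 7.43%) and the Sp1 word (71.1% against 70%). Unknown depth limits what an uncovered TSS shows.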

Other observations

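Of all 2451 uncovered CpG-rich one-way TSSs, 48.3% had a peak within 1 kb and 35.8% lay between 2 peaks. In the lists of cellular machinery these numbers are small and the differences between lists were not tested. A peak lay within 1 kb of all 11 uncovered cytoplasmic ribosomal protein genes, all 6 translation initiation factors, all 4 genes of the polymerase list, all 3 splicing factors, both Mediator subunits, both mitochondrial ribosomal proteins and the 1 proteasome gene. Of 49 uncovered developmental transcription factors 43 had no peak within 1 kb and 1 lay between 2 peaks. Of 13 uncovered neuronal genes 11 had none within 1 kb and 0 lay between 2 peaks, and of 30 uncovered potassium channel genes these counts were 25 and 4. They were 9 and 2 of 15 uncovered Hox genes and 32 and 11 of 51 solute carriers. Zinc finger proteins named Zfp had 13 of 27 uncovered promoters between 2 peaks and 12 without a peak within 1 kb. The SWI/SNF list divided evenly, with 3 of 6 in each state.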
